A study of Homo sapiens with 45 samples.

Results

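Progress through the cell cycle is driven by cyclin-dependent kinases, which act when bound to a cyclin and are held back by inhibitory phosphates that the CDC25 phosphatases remove. The 10 genes described here are CCNE1, CCNE2, CCND3 and CDC25A, grouped as G1/S genes, and CCNA2, CCNB1, CCNB2, CDK1, CDC25B and CDC25C, grouped as G2/M genes. They were chosen by name, as all probes annotated with these symbols among the 19431 gene symbols of the values table. The table held 15 such probes, 6 of G1/S and 9 of G2/M genes, and each probe was described apart.

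D-type cyclins act in early G1, E-type cyclins bind CDK2 at the start of DNA replication, cyclin A serves S phase and G2, and B-type cyclins bind CDK1 to drive mitosis. Many of these genes are transcribed periodically, the G1/S group largely under E2F factors and the G2/M group under a cell-cycle complex that uses CHR and CCAAT elements together with MYBL2 and FOXM1. E2F factors bind DNA as dimers with DP proteins such as TFDP1. Germinal-centre B cells divide very rapidly, and some of the lymphomas that arise from them retain strong expression of this programme.

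Transcripts were measured in SUDHL6, an established diffuse large B-cell lymphoma line, 20 hours after nucleofection with 80 pmol of an siRNA pool. The pools were aimed at candidate regulators of the step from follicular to diffuse large B-cell lymphoma: the E2F partner TFDP1, the bZIP factor ATF5, the forkhead factor FOXM1, the DNA-bending protein HMGA1 and the NF-Y subunit NFYB, whose complex binds CCAAT boxes. The single silencings siHMGA1, siFOXM1, siTFDP1 and siATF5 had 3 arrays each and were set against 4 arrays of the non-target pool siNT4. The pairs siHMGA1+siFOXM1 (3 arrays), siHMGA1+siTFDP1 (4), siHMGA1+siATF5 (3) and siTFDP1+siATF5 (2) were set against 2 arrays of siNT4+siNT4. A further set of 15 arrays, marked A in the titles, held siNFYB_A and siFOXM1_A against siNT4_A, and siNFYB+siFOXM1_A against siNT4+siNT4_A, with 3 arrays each. What the letter stands for is not stated in the labels. All groups were the same line and differed, as far as labelled, in the pools and the letter A. Whether replicates came from separate cultures is not stated either, so a p-value here covers array-to-array spread that may be purely technical.

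Germinal-centre B-cell markers were above background for 8 of the 9 genes with a probe, including MS4A1, CD79A and BCL6, while 0 of 6 T-cell and 0 of 4 epithelial and stromal markers were, and 2 of 5 myeloid markers were (CD14 and FCGR3A). A probe was taken as above background on an array where it exceeded that array's median by more than 0.5 log2. On 44 arrays 24.2% to 30.6% of probes were above it, and each array's median correlation with the others lay between 0.97 and 0.993. On siTFDP1+siATF5 replicate 3 the values were 44.5% and 0.694, and this array was left out of the main analysis of 44 arrays, which leaves that pair with 1 array. Differences below come from limma, fitted to the 13679 probes above background on at least 3 arrays, and a difference was called where its Benjamini-Hochberg adjusted p was under 0.05.

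The silenced genes differed in how far they fell. TFDP1 (probe ILMN_1661717) fell by 1.86 log2 in siATF5 (adjusted p = 6.5e-17), and by 1.06 in siTFDP1 itself (adjusted p = 8.3e-09), each against siNT4. Its values were 9.30, 9.52 and 9.59 in siATF5 and 10.18, 10.31 and 10.35 in siTFDP1, against 11.25 to 11.43 in siNT4. ATF5 fell by 0.69 in siATF5 (adjusted p = 0.0055), but its difference in siHMGA1+siATF5 was only -0.10 and was not called. The controls of these 2 comparisons differed too. ATF5 had a mean of 10.46 in siNT4+siNT4 (2 arrays) and 10.81 in siNT4 (-0.36, unadjusted p = 0.031, not called). Its mean was 10.36 in siHMGA1+siATF5 and 10.12 in siATF5. HMGA1 fell by 1.55 in siHMGA1. In siHMGA1+siTFDP1 TFDP1 fell by 0.63 on probe ILMN_1661717, but its other probe, ILMN_2117987, differed by -0.51 without a call. HMGA1 differed by -0.48 there, also without a call. The array labelled siHMGA1+siTFDP1 replicate 1 read HMGA1 at 11.27, the level of siNT4+siNT4 (11.25 and 11.28), against its label, and the other 3 read 10.58 to 10.70. That array also had the lowest TFDP1 value of the group, 10.41 on ILMN_1661717, against 10.71 to 11.06 on the other 3. FOXM1 probe ILMN_2344971 differed by -0.27 in siFOXM1, -0.38 in siHMGA1+siFOXM1, -0.19 in siFOXM1_A and -0.26 in siNFYB+siFOXM1_A, with unadjusted p of 0.0037, 0.00069, 0.046 and 0.0074. Neither FOXM1 probe was called in a FOXM1 silencing, nor the NFYB probe in an NFYB silencing, so those groups are named here by their labels alone.

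Of the 15 member probes, 11 passed the filter, 3 of G1/S and 8 of G2/M genes, and they represented 9 of the 10 genes. Member counts in the comparisons below are counts of these 11 probes, among which CDK1 and CDC25C have more than 1 each. The 4 that did not pass were the only CCNE2 probe, at a mean of 6.92 log2 and above background on 0 of 44 arrays, and further probes of CCNE1 (6.98), CDC25A (7.12) and CDC25C (7.20), each above background on 1 array. CCNE2, the second E-type cyclin, therefore has no measured response here. CCND3, the D-type cyclin of germinal-centre cells, was read at 11.02 to 11.70 on every array. The G2/M probes of CCNB2 (10.42 to 11.15), CDK1 (ILMN_1747911, 10.00 to 11.24), CCNB1 (9.29 to 10.12), CDC25B (9.34 to 9.95) and CCNA2 (8.83 to 9.53) were above background on all 44 arrays, as was CDC25A (8.10 to 9.25). CCNE1 (ILMN_2374425, 6.87 to 8.41) was above background on 40 of 44 arrays. Both tested CDC25C probes were near the lower limit of the arrays, above background on 24 and 7 of 44 arrays. Signals of different probes depend on the probe as well as on the transcript, so the order of these levels is not an order of expression.

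**Figure D1:**
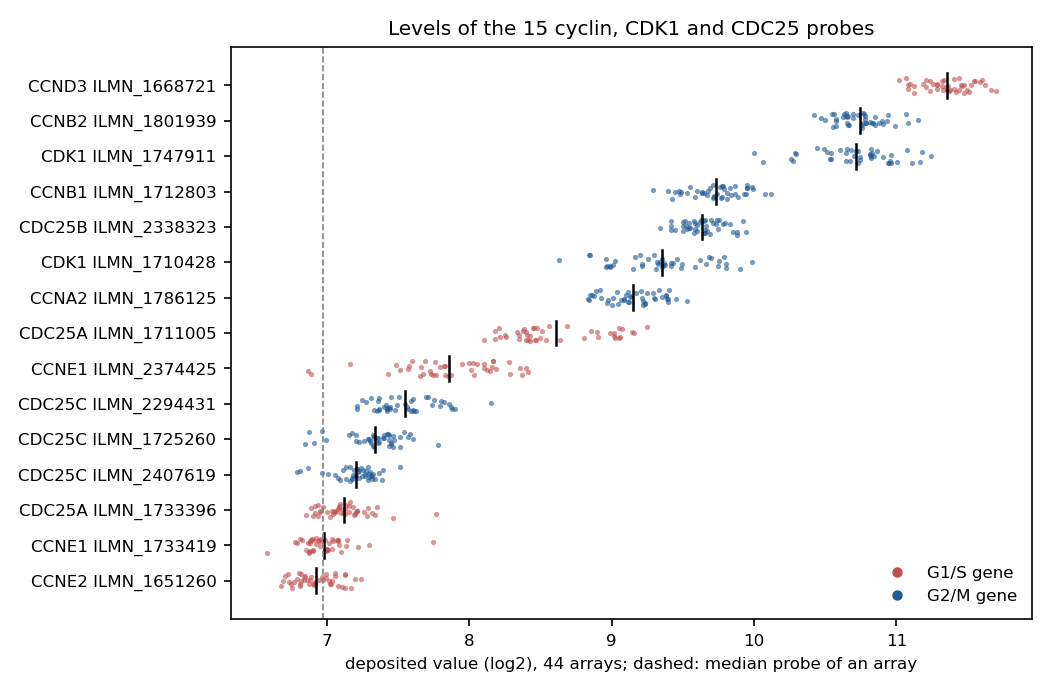
Deposited log2 value (horizontal axis) of each of the 15 probes (rows) on 44 arrays, with G1/S genes in red and G2/M genes in blue. Each point is 1 array, the black bar is the mean, and the dashed line is the median probe of an array. CCNE2 sits on that line at a mean of 6.92, while CCND3 lies between 11.02 and 11.70.

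Sequences before the transcription start are shown for the 4 genes called after siATF5 and for CCNB2, which was not called. They show the proximal promoter at the first listed start of each gene. Each window holds 250 bases before and the first 30 bases of a RefSeq transcript start (build GRCh38.p14, plus strand), read 5′ to 3′, with motif matches in capitals. The windows are CCNE1 at chr19:29811741-29812020, CDK1 at chr10:60778081-60778360 (the first of its 2 windows), CCNB1 at chr5:69166900-69167179, CDC25B at chr20:3786701-3786980 (the first of its 4 windows) and CCNB2 at chr15:59104896-59105175.
CCNE1: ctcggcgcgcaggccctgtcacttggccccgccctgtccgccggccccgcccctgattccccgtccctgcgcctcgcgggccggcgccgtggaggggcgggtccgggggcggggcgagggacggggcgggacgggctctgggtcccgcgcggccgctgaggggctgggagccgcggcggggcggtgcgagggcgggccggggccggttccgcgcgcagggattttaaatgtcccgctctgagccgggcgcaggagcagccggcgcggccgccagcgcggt
CDK1: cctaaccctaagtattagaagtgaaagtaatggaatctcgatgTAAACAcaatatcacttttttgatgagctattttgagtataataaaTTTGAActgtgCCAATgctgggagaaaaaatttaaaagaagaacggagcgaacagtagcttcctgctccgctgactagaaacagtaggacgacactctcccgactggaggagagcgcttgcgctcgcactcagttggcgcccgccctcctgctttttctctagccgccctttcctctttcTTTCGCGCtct
CCNB1: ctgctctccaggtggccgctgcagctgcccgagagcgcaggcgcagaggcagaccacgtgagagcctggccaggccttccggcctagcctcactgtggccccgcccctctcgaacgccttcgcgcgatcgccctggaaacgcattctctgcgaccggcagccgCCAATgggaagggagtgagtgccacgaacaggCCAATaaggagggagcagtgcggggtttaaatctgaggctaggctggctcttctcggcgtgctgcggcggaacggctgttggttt
CDC25B: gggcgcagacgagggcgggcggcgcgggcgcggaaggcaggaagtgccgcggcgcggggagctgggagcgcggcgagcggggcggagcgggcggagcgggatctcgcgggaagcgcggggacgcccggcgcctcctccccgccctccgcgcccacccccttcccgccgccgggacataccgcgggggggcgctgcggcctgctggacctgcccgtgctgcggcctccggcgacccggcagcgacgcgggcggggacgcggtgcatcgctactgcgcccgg
CCNB2: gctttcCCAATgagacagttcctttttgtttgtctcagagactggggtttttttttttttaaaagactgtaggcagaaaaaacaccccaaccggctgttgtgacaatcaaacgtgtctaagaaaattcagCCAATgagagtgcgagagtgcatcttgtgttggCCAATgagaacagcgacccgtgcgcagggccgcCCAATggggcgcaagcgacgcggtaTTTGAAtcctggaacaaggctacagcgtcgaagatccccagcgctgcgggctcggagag
Both strands were searched for an E2F motif (TTTCCCGC, TTTCGCGC, TTTGCCGC or TTTGGCGC), a CCAAT box (CCAAT), a CHR (TTTGAA), a forkhead motif (TAAACA) and a CRE (TGACGTCA). Across all 35116 windows of this length these were present in 3.14%, 33.6%, 14.5%, 11.8% and 1.85%. Among 9 member genes, 2 held the E2F motif (CDC25A and CDK1), 8 a CCAAT box, 3 a CHR, 2 the forkhead motif and 1, CCNA2, the CRE in at least 1 of their 18 windows. Several genes have more than 1 window, and the windows of CDK1, and some of CDC25C, overlap, so that the E2F match of both CDK1 windows is 1 site and these counts cannot be set against the shares of all windows. The CCNB2 window held CCAAT boxes starting at -244, -120, -87 and -54 and a CHR at -29, counted from the start. The CCNB1 window held CCAAT boxes at -87 and -55, and the CDK1 window shown held 1 match each of the forkhead motif (-207), CHR (-161), CCAAT box (-150) and E2F motif (20). CDK1 window 2, not shown, held the E2F motif at -128, CCAAT boxes at -78 and -46 and CHR matches at -69, -13 and 10. CDC25B windows 2 and 3, not shown, held a CCAAT box each, so the motifs found depend on the start. No searched motif was in the CCNE1 or the CDC25B window shown. A match describes letters only, and no match says only that these letters are not in this window.

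In siATF5, CCNE1, the cyclin of the G1/S transition, and CDK1, CCNB1 and CDC25B, which act together at entry into mitosis, were lower than in siNT4. TFDP1 fell further than ATF5 on these arrays, so a lower level of either factor cannot be told apart here. The falls were small, 1.25- to 1.66-fold, and 4 of the 11 tested member probes were called, all lower, where 3.37% of all tested probes were called in either direction and 1.62% lower. They came from both classes, 1 of 3 G1/S probes and 3 of 8 G2/M probes. The median difference was -0.32 log2 over the 11 probes and -0.01 over all tested probes, with -0.27 for G1/S and -0.32 for G2/M probes. Of the 11, 10 had an unadjusted p under 0.05 (21.8% of all tested probes did), 10 lay below 0 (52.8%) and 5 had every siATF5 array below every siNT4 array (6.19%). In RNA from whole cultures, fewer cells in the phase that expresses a gene and less RNA per cell cannot be told apart.

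CCNE1, the cyclin that activates CDK2, read 6.87, 6.89 and 7.57 in siATF5, against 7.75, 7.76, 7.83 and 8.01 in siNT4. All 3 siATF5 arrays were lower than all 4 controls, and replicates 1 and 2 were at the level of the median probe of an array. The difference was -0.73 (SE 0.14, 95% interval -1.01 to -0.46, adjusted p = 0.0026), 1.66-fold lower, and since the low arrays sit at the lower limit its size is uncertain there. The other CCNE1 probe, ILMN_1733419, which was too dim to test, read 7.14, 7.74 and 7.04 in siATF5, against 6.58 to 7.10 in siNT4, and so did not follow the tested one.

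CDK1, the kinase of mitotic entry, was read by 2 probes. ILMN_1710428 gave 8.84, 8.63 and 9.02 in siATF5, against 9.15, 9.22, 9.31 and 9.32 in siNT4, and the groups did not overlap (-0.42, SE 0.11, adjusted p = 0.027). ILMN_1747911 gave 10.06, 10.26 and 10.54 in siATF5, against 10.51, 10.65, 10.72 and 10.81 in siNT4. Replicate 3 of siATF5 lay just above the lowest control, and the difference of -0.39 (SE 0.12) missed the threshold with an adjusted p of 0.054. The probes thus gave differences of similar size on either side of the threshold.

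CCNB1, the main partner of CDK1 in mitosis, read 9.40, 9.48 and 9.53 in siATF5, against 9.78, 9.78, 9.81 and 9.95 in siNT4 (-0.36, SE 0.10, adjusted p = 0.044). The groups were separate by a gap wider than either group's own range. CDC25B, the phosphatase that first activates CDK1 with cyclin B, read 9.42, 9.34 and 9.52 in siATF5, against 9.63, 9.74, 9.75 and 9.88 in siNT4 (-0.32, SE 0.09, adjusted p = 0.044). Here too every siATF5 array was below every control.

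The other members were not called. CCNA2, the S and G2 cyclin, read 8.87, 9.01 and 8.83 in siATF5, against 9.09, 9.13, 9.22 and 9.25 in siNT4, and although the groups did not overlap the difference of -0.26 had an adjusted p of 0.096. CCNB2 differed by -0.27 (adjusted p = 0.11), CCND3 by -0.27 (0.14) and CDC25A, the phosphatase of G1/S entry, by -0.19 (0.20). Their 95% intervals reached from -0.47 to -0.07, from -0.49 to -0.05 and from -0.38 to -0.01. The CDC25C probes, for the phosphatase that sustains CDK1 activation, pointed in opposite directions near the lower limit, -0.32 for ILMN_1725260 and 0.18 for ILMN_2294431.

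**Figure D2:**
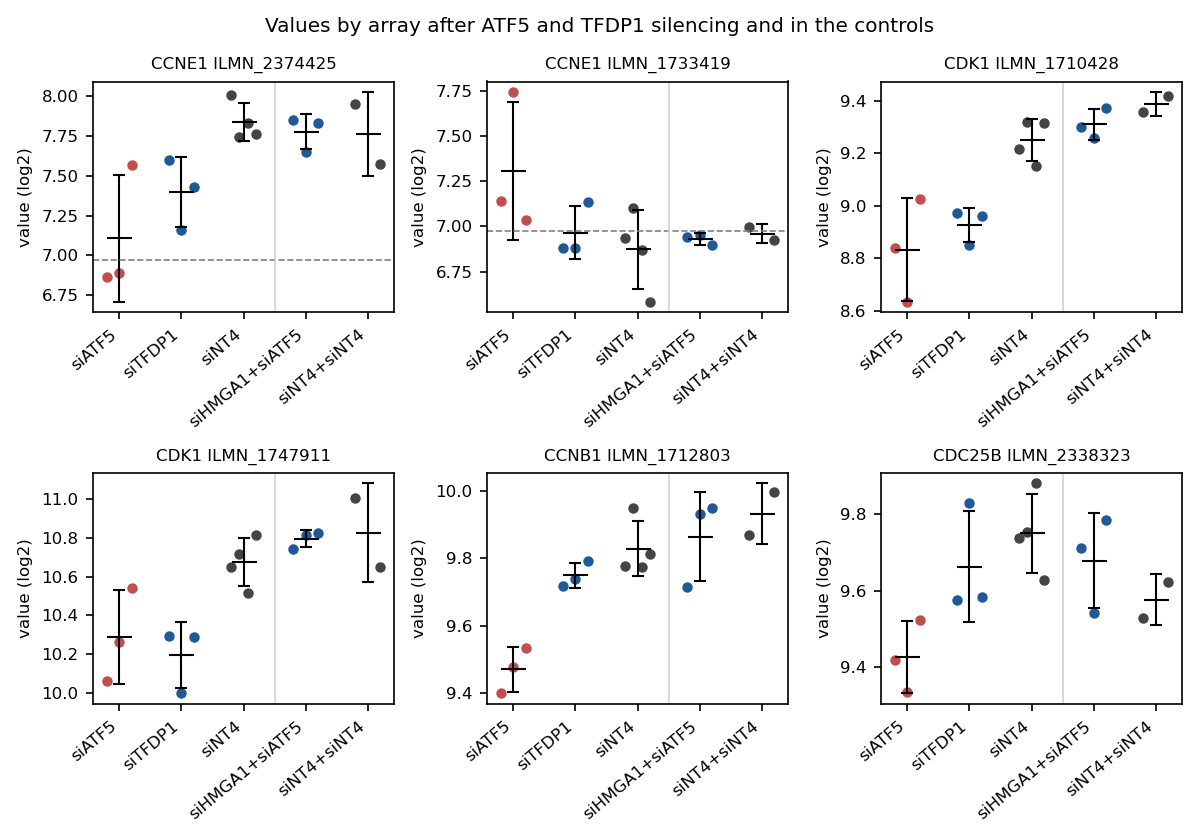
Deposited log2 value (vertical axes, a separate scale per panel) on each array of 5 groups for 6 probes of CCNE1, CDK1, CCNB1 and CDC25B, with bars for the mean ± SD and a dashed line for the median probe of an array. The 3 siATF5 arrays lie below the 4 siNT4 arrays for CCNE1 ILMN_2374425, CDK1 ILMN_1710428, CCNB1 and CDC25B, but not for CCNE1 ILMN_1733419.

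The number of siATF5 calls changed with the arrays included. Of probes, 29.4% and 30.6% were above background on siATF5 replicates 1 and 2, against 25.4% on siATF5 replicate 3 and 25.2% to 25.9% on the siNT4 arrays, and its part in the result was not tested beyond the following fits. With that share as a covariate 0 of 11 members were called, and CCNB1 and CDC25B differed by -0.18 each. The number called was 1, 0 and 5 without siATF5 replicates 1, 2 and 3 in turn, and 2, 1, 4 and 1 without siNT4 replicates 1, 2, 3 and 4. Over all tested probes, these fits called between 28 and 2409. CCNE1 was called in all of these but the fit without siATF5 replicate 2 (adjusted p = 0.070). Of these 7 fits, CDK1 ILMN_1710428 was called in 3, CDK1 ILMN_1747911 in 2, and CCNB1, CDC25B and CCNB2 in 1 each. The 4 called without siNT4 replicate 3 were CCNE1, CCNB2 and both CDK1 probes, not the 4 of the main fit. With siATF5 replicate 3 as its only array, a fit added after the values were seen in which that array is assumed to vary like the other groups, 0 were called, with less power than 3 arrays give, and the differences were -0.27 for CCNE1, -0.23 for CDK1 ILMN_1710428, -0.30 for CCNB1 and -0.22 for CDC25B. With all 45 arrays 0 were called, and the adjusted p of CCNE1 was 0.10.

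Silencing of TFDP1 gave no called change in any member, though 10 of 11 differences lay below 0 (49.4% of all tested probes did). In limma 0 of 11 were called, against 0.0512% of all tested probes (7 probes), and 4 members had an unadjusted p under 0.05, against 12% of all tested probes. The median was -0.14 log2, against 0.00 over all probes. The 4 probes were those of CDK1, CCNE1 and CCNA2, and in each every siTFDP1 array lay below every siNT4 array, which held for 5.47% of all tested probes.

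CDK1 ILMN_1747911 read 10.30, 10.00 and 10.29 in siTFDP1, with the controls at 10.51 to 10.81 in siNT4 as above (-0.48, 95% interval -0.72 to -0.24, adjusted p = 0.11). CDK1 ILMN_1710428 read 8.97, 8.85 and 8.96 in siTFDP1 (-0.32, adjusted p = 0.26). CCNE1 read 7.60, 7.16 and 7.43 in siTFDP1, all above its readings in replicates 1 and 2 of siATF5 (-0.44, 95% interval -0.72 to -0.17, adjusted p = 0.24). CCNA2 read 8.92, 8.84 and 9.08 in siTFDP1 (-0.22, adjusted p = 0.36). CCNB1 and CDC25B, both called after siATF5, read 9.72, 9.74 and 9.79 and 9.58, 9.83 and 9.58 in siTFDP1, with differences of -0.08 (95% interval -0.29 to 0.13) and -0.09 (-0.27 to 0.10). None of the 4 CDK1, CCNE1 and CCNA2 probes was called under any alternative or with any array left out.

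**Figure D3:**
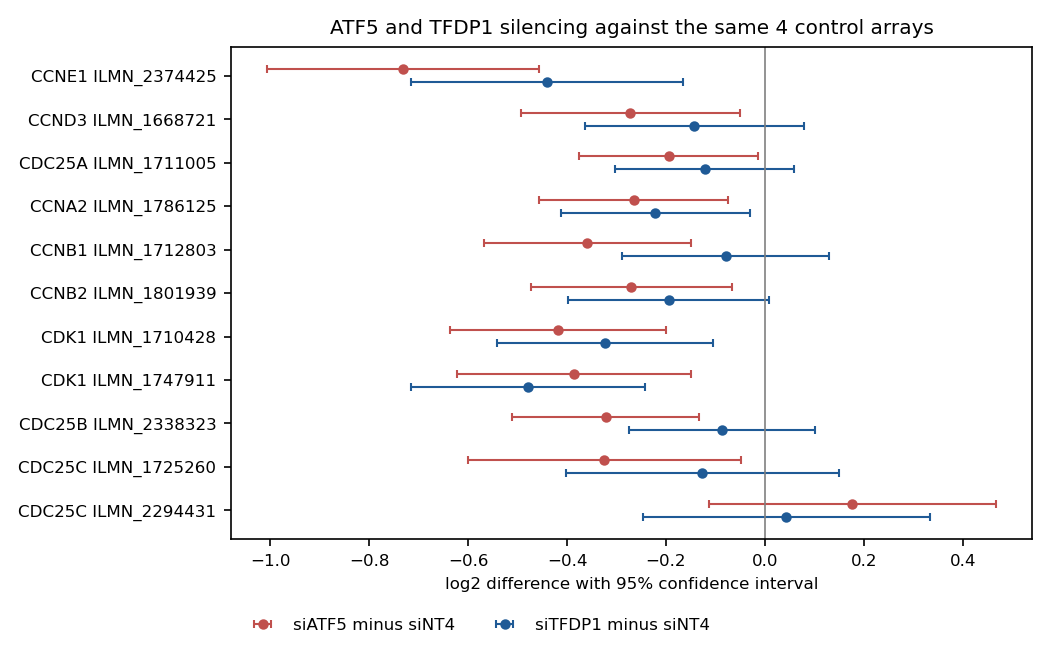
Log2 difference from siNT4 (horizontal axis) of each tested probe, with 95% confidence intervals, for siATF5 (red) and siTFDP1 (blue). Both comparisons share the 4 siNT4 arrays, and CCNB1 is the probe with -0.36 after siATF5 beside -0.08 after siTFDP1.

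The 2 comparisons share their 4 control arrays, so the likeness of their columns is no separate evidence. The direct difference of siATF5 minus siTFDP1 uses no control. In it 0 of 11 members were called by limma and 2 had an unadjusted p under 0.05, where 0.775% of all tested probes were called and 12.7% had an unadjusted p under 0.05. The 2 were CCNB1 (-0.28, 95% interval -0.50 to -0.06, adjusted p = 0.26) and CDC25B (-0.24, -0.44 to -0.03, adjusted p = 0.30). CCNE1 differed by -0.29 (-0.58 to 0.00, adjusted p = 0.40), and CDK1 by -0.09 and 0.09 on its 2 probes. Without siATF5 replicate 3, CCNE1 was called in this difference (-0.52, adjusted p = 0.020). Over all tested probes, the fits that left out 1 array called between 8 and 896.

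No member was called in the pair siHMGA1+siATF5. CCNE1 read 7.85, 7.65 and 7.83 in siHMGA1+siATF5, against 7.95 and 7.58 in siNT4+siNT4, so that the groups overlapped (0.01, 95% interval -0.31 to 0.34). CDK1, CCNB1 and CDC25B differed by -0.08 and -0.03, -0.07 and 0.10. ATF5 itself read 10.37, 10.44 and 10.28 in that pair, against 10.63 and 10.29 in siNT4+siNT4, and TFDP1 was at 11.34 to 11.50, against 11.36 and 11.46. The change in siHMGA1+siATF5 minus the change in siATF5 was above 0 for 10 of 11 members, and below 0 for 48.3% of all tested probes. None was called by limma (3 had an unadjusted p under 0.05; over all probes 0.0658% were called and 13.1% had an unadjusted p under 0.05). It was 0.75 for CCNE1 (SE 0.21, adjusted p = 0.15) and 0.42 for CDC25B (adjusted p = 0.21). The controls of CDC25B differed too, with a mean of 9.58 in siNT4+siNT4 (2 arrays) and 9.75 in siNT4 (-0.17, not called), and this enters its 0.42. Without siATF5 replicate 3 it was called for CCNE1 (0.98, adjusted p = 0.0042). Over all tested probes, leaving out 1 array of these groups gave between 4 and 607 calls.

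In siTFDP1+siATF5 the 1 array in the analysis gave 10.27 for CDK1 ILMN_1747911, against 11.00 and 10.65 in siNT4+siNT4 (-0.55, unadjusted p = 0.0053, not called), but 9.34, against 9.35 and 9.42, on ILMN_1710428. CCNE1 read 7.69, between the controls at 7.58 and 7.95, and CCNB1 10.12, above both at 9.87 and 10.00. That lone array is assumed to vary like the other groups, which supply the spread behind every p and interval of this pair. The silenced genes themselves read 10.65 for TFDP1 on it, against 11.46 and 11.36 in siNT4+siNT4 (ILMN_1661717, -0.76, adjusted p = 0.50), and 10.28 for ATF5, against 10.63 and 10.29, and neither was called. The array that stands apart, replicate 3, read 8.97 and 7.38 on the CDK1 probes, 9.30 for CCNB2, 6.63 for CCNE1 and 7.81 for CDC25A, and 8.64 to 8.77 on the dim probes of CDC25A, CDC25C and CCNE1. With it, 5 of 11 members were called in that pair (CCNE1, CDC25A, CCNB2 and both CDK1 probes), where 50% of all probes were, and without it 0.

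No member was called in the remaining silencings, those of HMGA1, FOXM1 and NFYB and the pairs. Over the 9 comparisons other than siATF5 and siTFDP1, 0 of 99 differences were called by limma, and 3 (3.03%) had an unadjusted p under 0.05, while 0% or 0.00731% of all tested probes, at most 1, were called in each. Over all tested probes, 2.24% in siHMGA1, 10.3% in siFOXM1, 8.89% in siHMGA1+siFOXM1, 3.14% in siHMGA1+siTFDP1, 3.84% in siHMGA1+siATF5 and 2.8% in siTFDP1+siATF5 had an unadjusted p under 0.05. In set A it was 1.75% in siNFYB_A, 1.98% in siFOXM1_A and 2.34% in siNFYB+siFOXM1_A. The differences ran from -0.55 to 0.23 and the smallest adjusted p was 0.41. Besides CDK1 in siTFDP1+siATF5, those 3 were CCNB1 in siFOXM1 and CDC25B in siHMGA1+siTFDP1. CCNB1, a textbook FOXM1 target, read 9.55, 9.42 and 9.76 in siFOXM1, against 9.78 to 9.95 in siNT4 (-0.25, 95% interval -0.46 to -0.04, unadjusted p = 0.020). In set A CCNB1 differed by -0.17 (-0.39 to 0.06) in siFOXM1_A against siNT4_A. CDC25B differed by -0.14 in siFOXM1 and by -0.18 in siFOXM1_A. In the pairs with FOXM1 it did not always fall. CDC25B had a mean of 9.73 in siHMGA1+siFOXM1, against 9.58 in siNT4+siNT4 (0.16), a control that was itself lower than siNT4, as given above. It had a mean of 9.49 in siNFYB+siFOXM1_A, against 9.57 in siNT4+siNT4_A. The means of CCNB1 were 9.76 against 9.93 and 9.74 against 9.78 in these pairs, in that order. The change in siFOXM1 minus that in siFOXM1_A was called for 0 of 11 members, with 0 at an unadjusted p under 0.05 (0% and 4.53% of all tested probes). CDC25B in siHMGA1+siTFDP1 differed by 0.23 (0.01 to 0.44, unadjusted p = 0.037) from the same siNT4+siNT4 arrays. The difference was 0.18 (unadjusted p = 0.11) without replicate 1, the array at the control level of HMGA1. Without that array CCNA2 differed by -0.25 (unadjusted p = 0.020), against -0.14 with it, and no member was called either way.

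In siNFYB_A, member differences ran from -0.15 to 0.10, and in siNFYB+siFOXM1_A from -0.09 to 0.15. In siHMGA1 they ran from -0.13 to 0.09. The 95% intervals of all 11 probes together covered -0.46 to 0.39 in siNFYB_A and -0.34 to 0.37 in siHMGA1. Non-additivity, the change of a pair minus the sum of its single changes, was called for 0 of 11 members in each of 5 pairs. The largest was 1.09 for CCNE1 in siTFDP1+siATF5 (95% interval 0.45 to 1.74, adjusted p = 0.22), where 4 members had an unadjusted p under 0.05, against 12.7% of all tested probes. It rests on the lone array of that pair, and in the same pair the silenced gene TFDP1 was itself non-additive by 2.16 (adjusted p = 3.3e-07), being less reduced there than in siATF5. In siHMGA1+siATF5 3 did, against 6.56%. Of all tested probes, 0.0512% were non-additive in siTFDP1+siATF5, 0.0219% in siHMGA1+siATF5 and 0% in the other 3 pairs. Non-additivity of CCNE1 in siTFDP1+siATF5 was 1.33 without siATF5 replicate 3.

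**Figure D4:**
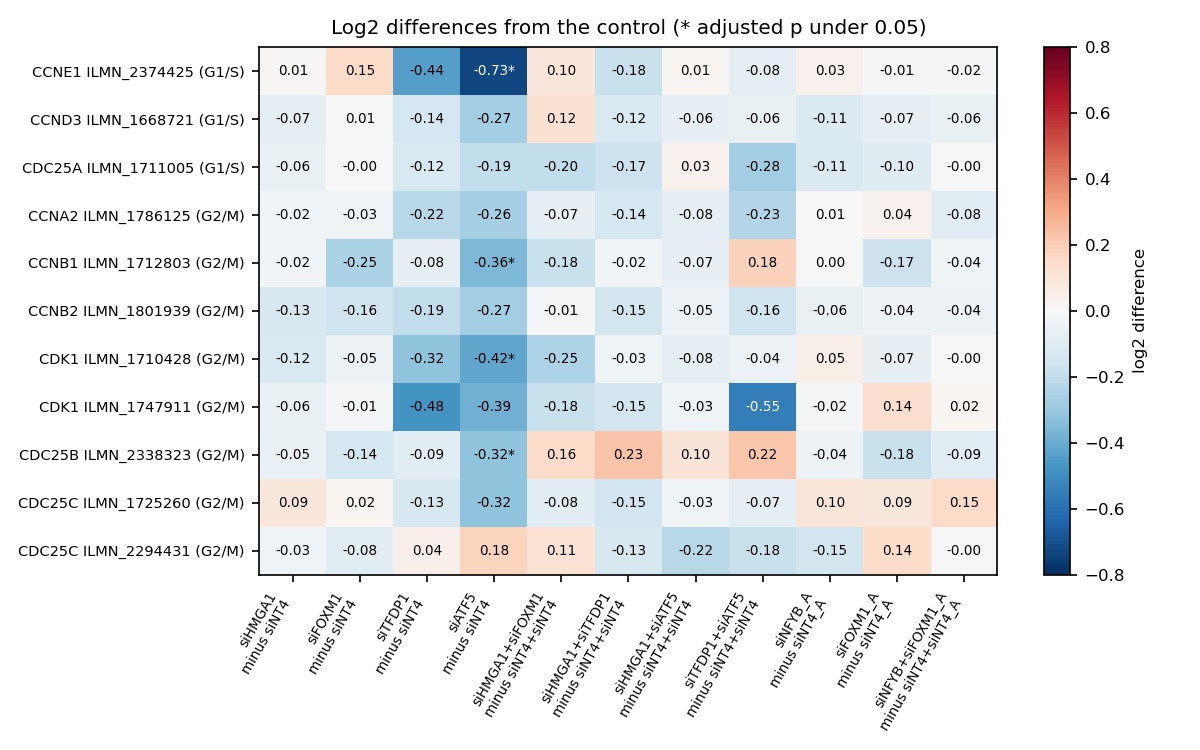
Log2 difference of each tested probe (rows) from its control in each of 11 comparisons (columns), in blue where lower and red where higher in the silencing, with an asterisk where the adjusted p was under 0.05. The 4 asterisks are all in siATF5 minus siNT4, from -0.73 for CCNE1 to -0.32 for CDC25B.

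Some members differed between the controls of the 2 sets of arrays, a comparison added after the values were seen. CDC25A read 9.05, 9.16 and 9.25 in siNT4_A, against 8.40, 8.51, 8.54 and 8.56 in siNT4 (0.65, SE 0.09, adjusted p = 1.1e-05). All 15 arrays of set A (8.81 to 9.25) were above all 29 other arrays (8.10 to 8.69). It was the 1 of 11 members called, where 2.49% of all tested probes were. CCNE1 (0.40, adjusted p = 0.12) and CDK1 ILMN_1710428 (0.37, adjusted p = 0.050, just over the threshold) also had every siNT4_A array above every siNT4 array, as did 8.36% of all tested probes, while CCNB2 was lower in siNT4_A (-0.33, adjusted p = 0.070). Without siNT4 replicate 3 or without siNT4_A replicate 1, CCNB2 was called as well, which made 2 members. The labels give only the letter, so differences in cells and in array handling between the sets cannot be told apart. Between siNT4+siNT4 and siNT4 no member was called, nor between siNT4+siNT4_A and siNT4_A, with 0 and 1 at an unadjusted p under 0.05 (limma called 0% and 0.402% of all tested probes, and 3.51% and 10.2% had an unadjusted p under 0.05).

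Some other genes of the G1/S machinery were lower in siATF5 than in siNT4. Of a list of 17 G1/S genes, 12 had tested probes, and 4 of their 15 probes were called, all lower, while the other 11 were not (3.37% of all tested probes were called and 1.62% were called lower). With all 45 arrays none of the 4 was called (adjusted p = 0.083 for SKP2, 0.37 for CDT1, 0.26 for MYB and 0.32 for E2F2). They were SKP2, which targets the inhibitor p27 for degradation (-0.48, adjusted p = 0.0018), CDT1, a replication licensing factor (-0.41, adjusted p = 0.0094), MYB, a proliferation-linked factor (-0.43, adjusted p = 0.031), and E2F2 (-0.35, adjusted p = 0.038), the last named after its value was seen. SKP2 ILMN_1665538 read 9.33, 9.34 and 9.55 in siATF5, against 9.80 to 10.03 in siNT4, with no overlap. Its second probe differed by only -0.10. CDT1 read 7.96 to 8.07 in siATF5, against 8.26 to 8.52 in siNT4, also with no overlap. MYB read 7.43, 7.69 and 7.02 in siATF5, against 7.67 to 8.04 in siNT4, so that 1 array overlapped.

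Of a list of 15 G2/M genes, 12 had tested probes, and 0 of their 16 probes were called after siATF5. CDKN3, a phosphatase that acts on CDKs, and WEE1, the kinase that CDC25 opposes, differed by -0.32 (adjusted p = 0.053) and -0.35 (adjusted p = 0.087). Both probes of the mitotic kinase AURKA differed by -0.27 and -0.24 (adjusted p = 0.11 and 0.18) and BUB1, a mitotic checkpoint kinase, by -0.24 (adjusted p = 0.17). These genes were named after their values were seen, and over the list differences ran from -0.35 to 0.24, with 7 of 16 below 0. The median was -0.15 over the G1/S list and 0.01 over the G2/M list, against -0.01 over all probes. After siTFDP1 no probe of either list was called, with medians of -0.20 and -0.04.

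Across the 15 group means, the genes whose probes followed CCNE1 most closely were TYMS (Pearson r = 0.967), PLK4 (0.964) and NCAPG (0.962). For CCNB1 they were NSMF (0.938), SINHCAF (0.927) and NPTN (0.914). Among the members, CDC25A and CCNA2 followed each other at 0.94, CCNE1 and CCNA2 at 0.90, and the 2 CDK1 probes at 0.85, while CDC25A and CCNB2 gave -0.69 and the 2 CDC25C probes -0.45. These are descriptions over 15 points that share arrays, controls and the division into sets, and the difference between the sets enters each of them.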

How the data were processed

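The measurements were hybridisations of total RNA from 45 samples of the SUDHL6 cell line to Illumina expression BeadArrays, and groups and replicate numbers were taken from the titles. A values table of 45013 probes, deposited by the authors on a log2 scale, was used. How the background was corrected, the arrays normalized and the values transformed is not stated in the labels, and small signals may therefore be compressed. A deposited table of raw intensities was not used, because its 90 columns of per-sample values are named only by chip and position. The number of arrays limits the precision. Gene names came from the platform annotation, which gave 28746 probes 1 symbol, 8 several and 16259 none.

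Probes more than 0.5 log2 above the array median on at least 3 arrays were tested. A mean per group was fitted to 44 arrays with limma 3.58.1 under R 4.3.3 (functions lmFit and eBayes, a two-sided test with Benjamini-Hochberg adjustment over 13679 probes, threshold 0.05). The design had this fit with no replicate block. Single silencings were compared with siNT4 and pairs with siNT4+siNT4 of the same set. All probes of the 10 genes are described, those too dim to test without a p-value in the main fit and not for every comparison. Of each pathway list, up to 3 called probes of smallest p per comparison are named. The members, lists and tests were chosen with earlier results of these data known. The fit was tested on simulated data with 200 changed probes. Of changes of 0.4 log2 it recovered 40.5% in siATF5 minus siNT4 and 12% in siHMGA1+siATF5 minus siNT4+siNT4. Of changes of 0.7 log2 it recovered 96% and 86.5%. Promoter sequences are those of RefSeq (GRCh38.p14).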

Additional observations from a re-analysis of the deposited data

Results flagged for a closer look

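CCNA2 stood out on 1 array of siHMGA1+siTFDP1. Replicate 1 read 9.29 log2, far from the other 3 arrays of that group at 8.85 to 8.92, so that its gap to the nearest of them was 0.832 of the whole range of the group, just over the 95% critical value for 4 arrays. HMGA1 read 11.27 on the same array, against 10.58 to 10.70 on the other 3. Of 30 probe and group pairs tested in groups of 4 arrays, this was the 1 found, where chance gives about 1 in 20.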

How the results depend on the processing

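The siATF5 calls depended on the processing. Against 4 called members (461 probes in all) in siATF5 minus siNT4, 0 were called with all 45 arrays (9 probes), with each array's above-background share as a covariate (5) or with only the groups compared (4), 1 with array weights on all 45 arrays (50), and 2 with a stricter filter (176) or quantile normalization (320). The fit with siATF5 replicate 3 alone, added after seeing the data, gave 0 (5 probes). Leaving out 1 array gave 0 to 5 (28 to 2409 probes). The count of called members was 4 with 1 probe per gene or a trended robust spread, and 6 with centring on the median above background. It was 5 with no filter, of which the dim CCNE1 probe was 0.44 higher in siATF5 and the others lower. These counts stayed within 1.5 times the 4 of the main fit, and their totals over all probes are not given here. CCNE1 was called in 8 of 12 alternatives, CDK1 ILMN_1710428 in 6 of 11, and CCNB1 and CDC25B in 5 of 12 each, with no change of sign. With the replicate block 4 members (460 probes) were called. Nothing in the labels ties the numbers, same-numbered siATF5 and siNT4 arrays deviated together at r = 0.08 to 0.20, not all over 0.1, and the block changed no other count of member calls. In siTFDP1+siATF5, 5 were called with all 45 arrays, against 0. Leaving out 1 array gave 0 to 1 called members for siATF5 minus siTFDP1 (8 to 896 probes). It gave 0 to 1 for the change in siHMGA1+siATF5 minus that in siATF5 (4 to 607 probes). For siNT4_A minus siNT4 the count was 1, and it was 4 with array weights, 3 with the stricter filter or only the groups compared, 2 with the covariate or a trended robust spread, and 1 to 2 leaving out 1 array. CDC25A was called in all of these. The cause was not tested. Signals near background limit CCNE1 and CDC25C.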
